A study of Danio rerio with 12 samples.

Results

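The collagen genes of the zebrafish were followed in whole larvae exposed to silver. They were taken as every gene whose symbol, after update of the array's annotation, is "col", a number, the letter a and a number, with any paralog suffix. This gave 36 genes on 91 probes, of 15083 named genes on the array. By type number, 14 are fibrillar, 8 belong to the basement membrane and its attachment, and 14 are of other types. Values of a gene's probes were averaged on each array. The test asked for a value on 2 or more arrays of every dye orientation and exposure group, which 34 of the 36 genes had. The 2 genes not tested were col7a1, with a value on 1 AgNO3 and 5 AgNPs arrays, and col28a2a, with values on 3 AgNO3 and 6 AgNPs arrays. The platform symbol alone would have chosen 33 genes; col8a2, col9a1a and col19a1 were recognised only after the update, each from 1 probe.

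All larvae were wild-type fish of the AB strain, 21 days old. One group received silver nitrate (AgNO3), a soluble silver salt, and another silver nanoparticles (AgNPs), each at 0.01 mg/L for 15 days from 6 days post fertilization. Controls were kept in conditioned water with methylene blue, and the labels do not say whether the exposed tanks also held methylene blue. Particle size and coating, the number of tanks and how many larvae made up an RNA sample are likewise not given in these sources. The p-values therefore cover the spread among these samples alone, part of which may be technical. RNA of an exposed and a control sample competed on each 2-colour array. There were 6 arrays per group, 3 with the exposed RNA in the dye Cy5 and 3 in Cy3, and codes in the sample descriptions were taken to mean that every control RNA served once on an AgNO3 array and once on an AgNPs array.

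Values are log ratios, read as exposed over control and taken as log2, so that 0 means no difference. For arrays with the exposed RNA in Cy5, that direction is a likely one, taken from the common practice of dividing Cy5 by Cy3. Under the reverse practice all signs given here turn. For arrays with the exposed RNA in Cy3, it also needs the authors to have turned the ratio before deposit. The base of the logarithm is an assumption. Whether dye-swapped arrays were turned before deposit is not settled either, and values were used as deposited. Without turning, the fitted ratio of a group would hold the dye effect, and the fit's term for dye orientation would hold the exposure effect. Arrays of the same orientation correlated at a mean of 0.087 within a group and 0.054 across groups. Arrays of opposite orientation correlated at a mean of -0.023 within a group and -0.023 across groups. The arrays differed in spread: interquartile ranges over all probes were 0.216 to 0.342 in AgNO3, 0.293 and 0.233 on AgNPs replicates 1 and 2, and 0.0946 to 0.116 on AgNPs replicates 3 to 6. Ratios hold no expression level, so the labelled tissue could not be checked against its markers and no gene's level can be set against another's. In RNA of whole larvae, fewer cells of a type and less RNA per cell cannot be told apart.

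Collagens are the main structural proteins of the extracellular matrix. Their chains wind into a triple helix in the endoplasmic reticulum, are secreted, trimmed and crosslinked, and then form fibrils, sheets or surface coats. Fibrillar types give tensile strength to bone, skin and tendon (types I and V) and to cartilage and notochord (types II, XI and XXVII), type IV forms the network of basement membranes, and type IX coats the fibrils of cartilage. A fish of this age is still building its skeleton, fins and scales. Because the zebrafish genome kept duplicates of many genes, several chains exist as a and b paralogs.

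No collagen gene differed from control past the threshold in either group, nor between the groups. In limma, with p-values adjusted over all 25266 features tested and a threshold of 0.05, 0 of 34 collagens passed in AgNO3, where 0.0119% of all features passed. The count was also 0 of 34 in AgNPs, against 0.0237% of all features, and 0 of 34 in the difference AgNO3 minus AgNPs, against 0%. At an unadjusted p under 0.05, 5 of 34 collagens stood out in AgNO3, or 14.7%, against 8.25% of all features. Of these 3 were higher (col27a1a, col9a1a and col2a1b), against 3.54% of all features, and 2 lower (col11a1b and col17a1b), against 4.71%. In AgNPs they were 2, or 5.88%, against 4.25%, with col11a1a higher, against 2.05%, and col5a2a lower, against 2.19%. In the difference there was 1, or 2.94%, against 4.22%, which was lower in AgNO3, against 2.58% lower and 1.65% higher over all features. The collagens' adjusted p-values ran from 0.513 to 1.00 in AgNO3, from 0.957 to 1.00 in AgNPs and from 0.858 to 0.991 in the difference. The count of 5 in AgNO3 was 3 when each group was fitted on its own arrays, 0 without AgNPs replicates 3 to 6, which also removes a dye orientation of that group, and 2 to 7 with 1 array left out; the cause was not tested. With the dye-swapped arrays turned, the fitted ratio had the other sign in 17 of 34 collagens in AgNO3, in 14 in AgNPs and in 15 in the difference. Leaving out a single array changed the sign of 16, 19 and 13 of them in at least 1 such fit. Collagen estimates lay within 0.40 of 0 in AgNO3 and within 0.32 in AgNPs.

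**Figure D1:**
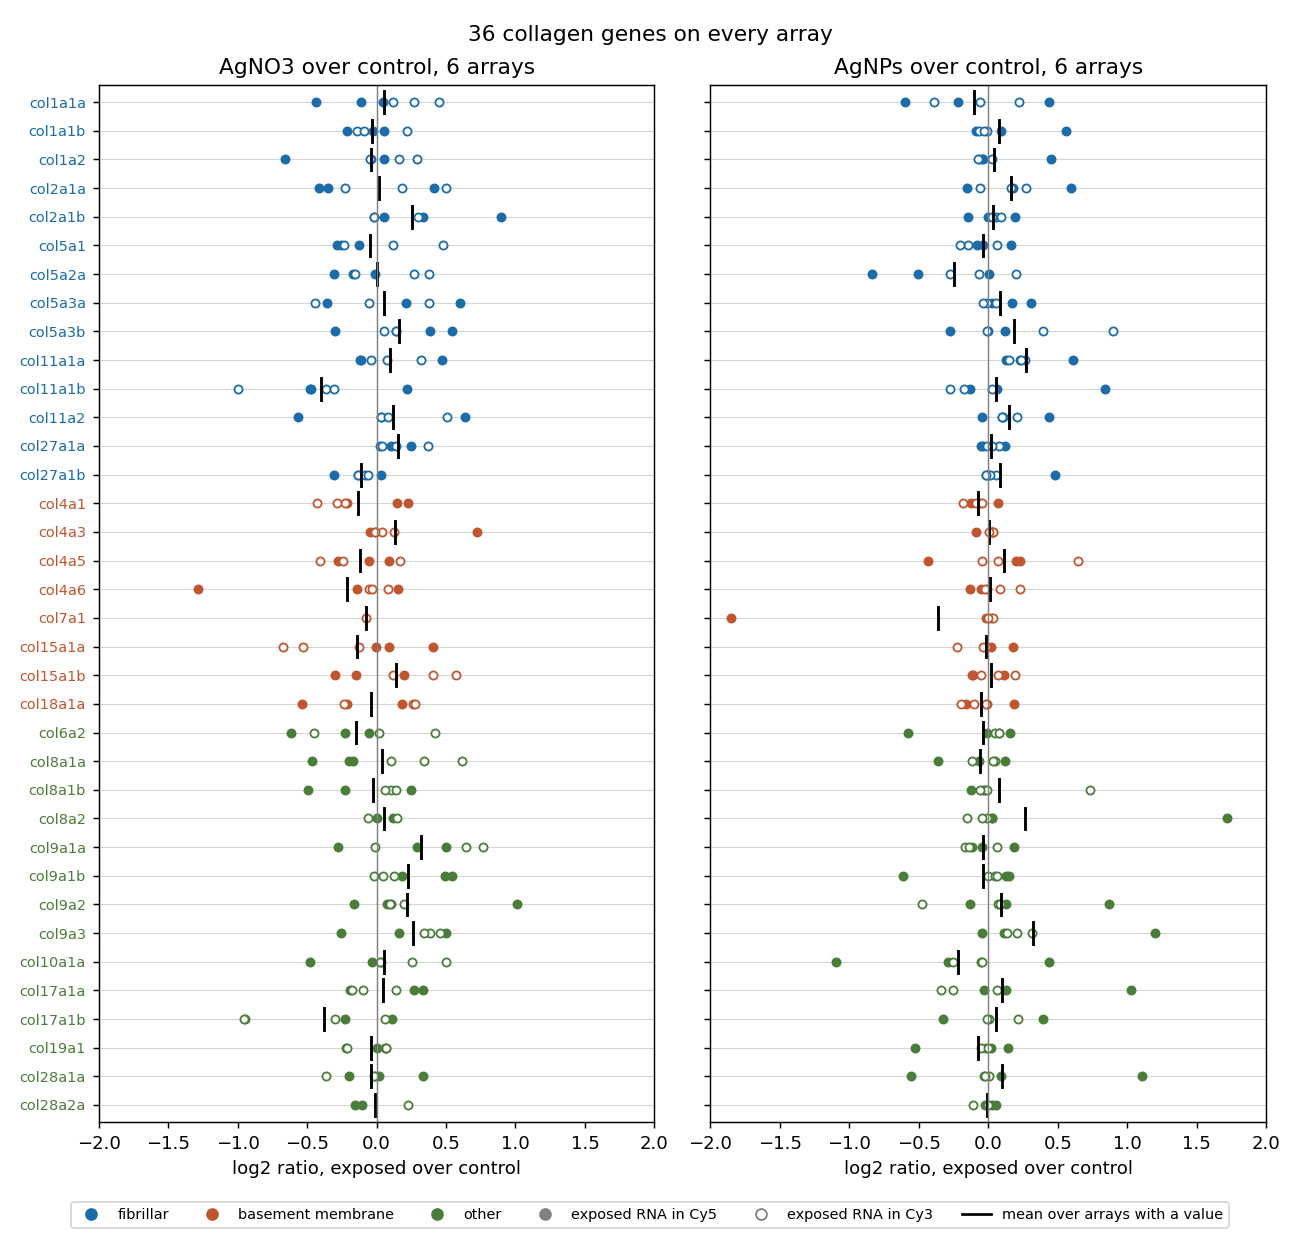
Log2 ratio of exposed over control (x axis) of the 36 collagen genes (y axis) on the 6 AgNO3 arrays (left) and the 6 AgNPs arrays (right). Filled points had the exposed RNA in Cy5, open points in Cy3, and black bars are means over the arrays with a value; points lie on both sides of 0 for every tested gene except col27a1a in AgNO3 and col11a1a in AgNPs.

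The median log2 ratio over the collagens was 0.029 in AgNO3, with 19 of 34 genes above 0, beside a median of -0.0056 over all features, of which 48.2% lay above 0. In AgNPs the median was 0.040, with 22 of 34 genes above 0, beside 0.0028 and 51.8% over all features. The spread of a collagen over the 6 arrays of a group had a median SD of 0.303 in AgNO3 and 0.238 in AgNPs, beside 0.288 and 0.203 over all features. The AgNO3 median over collagens was -0.025 with the dye-swapped arrays turned and -0.015 without AgNO3 replicate 6.

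Among the fibrillar collagens the values of lowest p were those of col27a1a in AgNO3 and col11a1a in AgNPs, both above 0, followed by col11a1b in AgNO3 and col5a2a in AgNPs, both below 0. In AgNO3, 9 of the 14 fibrillar genes lay above 0 with a median of 0.037, and in AgNPs 11 of 14 with a median of 0.067. The gene of lowest p in AgNO3 was col27a1a, which encodes a fibrillar collagen of cartilage and notochord. Its 6 AgNO3 arrays ran from 0.022 through a median of 0.12 to 0.37, and its AgNPs arrays from -0.050 through 0.0076 to 0.12. All 6 AgNO3 arrays were above 0, as on every array for 2.25% of all features, and the ranges of the groups overlapped. The fitted ratio was 0.15 in AgNO3 (SE 0.05, adjusted p = 0.513) and 0.02 in AgNPs (SE 0.05), and both probes of the gene were above 0 in AgNO3. That SE was the smallest among the collagens in AgNO3. On AgNPs replicates 3 to 6 a probe of col27a1a held values identical to those of probes of col11a2, col2a1b or col6a2. The other probe did so on AgNO3 replicates 3 and 5, with col2a1b and col8a1b. Such repeats may not be measured ratios, and their part in the low p was not tested. The ratio in AgNO3 was -0.028 with the dye-swapped arrays turned. No other collagen was higher on every AgNO3 array, and none was lower on every AgNO3 array, where 2.83% of all features were.

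The chain of type XI collagen encoded by col11a1b, which helps to start the thin fibrils of cartilage, stood lower in AgNO3. Its AgNO3 arrays ran from -0.9997 through a median of -0.42 to 0.22, and its AgNPs arrays from -0.27 through -0.052 to 0.84. It was below 0 on 5 of 6 AgNO3 arrays and on 3 of 6 AgNPs arrays, and the groups overlapped. The fitted ratio was -0.40 in AgNO3 (SE 0.14, adjusted p = 0.518) and 0.059 in AgNPs (SE 0.14). The probes had AgNO3 means of -0.49 and -0.13. The second probe was empty on AgNO3 replicates 4 and 5, so the value of -0.9997, on replicate 5, came from the first alone. On replicates 1, 2, 3 and 6 the second probe was at -0.099, -1.08, 0.53 and 0.13. With the dye-swapped arrays turned, the ratio in AgNO3 was 0.16. Its paralog col11a1a had fitted ratios above 0 in both groups. On the AgNPs arrays col11a1a ran from 0.13 through 0.23 to 0.61. On the AgNO3 arrays it ran from -0.12 through 0.021 to 0.47, with 3 of 6 above 0. It was the only collagen higher on every AgNPs array, as were 2.7% of all features, and none was lower on all, as were 2.6%. Its ratio was 0.27 in AgNPs (SE 0.09, adjusted p = 0.957), with all 4 probes above 0, and 0.10 in AgNO3 (SE 0.09). With the dye-swapped arrays turned, the ratios of col11a1a were 0.053 in AgNPs and -0.020 in AgNO3.

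The type II genes encode the main collagen of cartilage and of the notochord sheath. On the AgNO3 arrays col2a1b ran from -0.019 through 0.17 to 0.89, and on the AgNPs arrays from -0.14 through 0.042 to 0.19. It was above 0 on 4 of 6 AgNO3 arrays and the groups overlapped. Its ratio in AgNO3 was 0.26 (SE 0.10, adjusted p = 0.560), and 0.13 without AgNO3 replicate 1, the highest array. Its paralog col2a1a ran from -0.42 through -0.021 to 0.50 in AgNO3 and from -0.15 through 0.17 to 0.60 in AgNPs, around fitted ratios of 0.018 (SE 0.14) and 0.17 (SE 0.14). Without AgNPs replicate 1, the value of col2a1a in AgNPs was 0.061.

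The type I genes, which encode the main collagen of bone, skin and tendon, had an unadjusted p above 0.05 in both groups. On the AgNO3 arrays col1a1a ran from -0.43 through 0.083 to 0.45, col1a1b from -0.21 through -0.058 to 0.22, and col1a2 from -0.66 through 0.0041 to 0.29. On the AgNPs arrays the same genes ran from -0.60 through -0.14 to 0.44, from -0.089 through -0.018 to 0.56, and from -0.075 through -0.042 to 0.46. Each of the 3 genes had arrays on both sides of 0 in both groups. Fitted ratios were 0.06, -0.03 and -0.04 in AgNO3 and -0.10, 0.08 and 0.04 in AgNPs, with SEs of 0.09 to 0.13. These values moved with single arrays: without AgNPs replicate 1 they were -0.25, -0.023 and -0.059 in AgNPs, and without AgNO3 replicate 1 they were 0.14, 0.016 and 0.085 in AgNO3. In AgNO3 col1a1a was at -0.22 and col1a2 at -0.18 with the dye-swapped arrays turned.

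Type V chains, which set the width of type I fibrils, were represented by col5a1, col5a2a, col5a3a and col5a3b. On the AgNPs arrays col5a2a ran from -0.83 through -0.17 to 0.20, and on the AgNO3 arrays from -0.31 through -0.084 to 0.38. Its ratio in AgNPs was -0.25 (SE 0.11, adjusted p = 1.00), below 0 with all 4 probes, and -0.16 without AgNPs replicate 3. The gene col5a3b ran from -0.28 through 0.060 to 0.90 on the AgNPs arrays, and its ratio of 0.19 there (SE 0.14) was 0.051 without AgNPs replicate 6 and -0.24 with the dye-swapped arrays turned. On the AgNO3 arrays it ran from -0.30 through 0.14 to 0.54, with a ratio of 0.16. The remaining fibrillar genes, col5a1, col5a3a, col11a2 and col27a1b, had ratios between -0.11 and 0.12 in AgNO3 and between -0.040 and 0.15 in AgNPs.

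The basement membrane collagens had the lowest class median in AgNO3, -0.12, with 2 of 7 tested genes above 0. With the dye-swapped arrays turned that median was 0.039, and with the median over a gene's probes in place of the mean it was 0.0098. In AgNPs the median was 0.0047, with 4 of 7 above 0, and its sign changed when single arrays were left out. No gene of this class had an unadjusted p under 0.05 against control in either group. For type IV, col4a1 ran from -0.43 through -0.22 to 0.22 in AgNO3 and from -0.18 through -0.074 to 0.073 in AgNPs. This chain belongs to the most widespread form of the type IV network, and its ratios were -0.13 and -0.071 (SE 0.07 each). With the dye-swapped arrays turned, the ratios of col4a1 were 0.18 in AgNO3 and 0.035 in AgNPs. The array values of col4a3 reached 0.72 on AgNO3 replicate 3 and otherwise lay between -0.051 and 0.13 in AgNO3. Its ratio there was 0.14, and 0.014 without that array. On the AgNPs arrays it lay between -0.088 and 0.037.

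The genes col4a5 and col4a6 are neighbours in the genome. On the AgNO3 arrays col4a5 ran from -0.41 through -0.15 to 0.17 and on the AgNPs arrays from -0.43 through 0.13 to 0.65, with ratios of -0.12 and 0.11 (SE 0.12 each). The AgNO3 ratio of col4a5 was -0.048 without AgNO3 replicate 5 and 0.039 with the dye-swapped arrays turned, and its AgNPs ratio was 0.00016 without AgNPs replicate 6 and -0.11 turned. The gene col4a6 ran from -1.29 through -0.045 to 0.15 in AgNO3 and from -0.13 through -0.016 to 0.23 in AgNPs. Its ratio of -0.21 in AgNO3 (SE 0.14) was -0.0075 without AgNO3 replicate 1, so 1 array holds that value. Types XV and XVIII link basement membranes to the tissue around them, and type XVIII is the source of endostatin. Ratios were -0.14 for col15a1a, 0.14 for col15a1b and -0.042 for col18a1a in AgNO3, and lay between -0.050 and 0.018 in AgNPs. Turning the dye-swapped arrays gave 0.30, -0.22 and -0.15 for these genes in AgNO3. The anchoring fibril gene col7a1 stood at -0.077 on its only AgNO3 array. On its 5 AgNPs arrays it ran from -1.85 through -0.0019 to 0.036, with replicate 2 alone below -0.02.

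Over the 13 tested genes of other types the median was 0.047 in AgNO3, with 8 above 0, and 0.058 in AgNPs, with 7 above 0. The latter was -0.049 without AgNPs replicate 1 and -0.045 without AgNPs replicate 3. Among these genes the type IX chains, which sit on the surface of type II fibrils in cartilage, lay above 0 in AgNO3 in all 4 genes measured. Their ratios were 0.32 for col9a1a (SE 0.12, adjusted p = 0.544), 0.23 for col9a1b (SE 0.11, adjusted p = 0.610), 0.22 for col9a2 (SE 0.16) and 0.26 for col9a3 (SE 0.15). On the AgNO3 arrays col9a1a ran from -0.28 through 0.40 to 0.77, with 4 of 6 arrays above 0. The gene col9a1b ran from -0.017 through 0.15 to 0.55, col9a2 from -0.16 through 0.10 to 1.01, and col9a3 from -0.26 through 0.36 to 0.50, each above 0 on 5 of 6 arrays. All 5 probes of col9a1b and both of col9a3 were above 0 in AgNO3. The value of col9a2 was 0.077 without AgNO3 replicate 2, its highest array. With the dye-swapped arrays turned, the AgNO3 ratios were -0.15 for col9a1a, 0.18 for col9a1b, 0.086 for col9a2 and -0.13 for col9a3, so the common side of the 4 chains rests on values as deposited.

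In AgNPs the same chains divided, with 2 of 4 above 0. There col9a1a ran from -0.17 through -0.081 to 0.19 and col9a1b from -0.62 through 0.055 to 0.15, with ratios of -0.036 and -0.039. The ratio of col9a1a was 0.0045 without AgNPs replicate 4. That of col9a1b was 0.10 without AgNPs replicate 2, where a probe of the gene stood at -2.36. The division of the chains thus rests on single arrays. The gene col9a3 ran from -0.047 through 0.17 to 1.20. Its ratio of 0.32 (SE 0.15) was 0.12 without AgNPs replicate 1, which held the highest value. For col9a2 the ratio was 0.092, with arrays from -0.48 to 0.87, and -0.049 without AgNPs replicate 1.

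A list of chondrocyte markers without collagens had 7 of 7 tested genes above 0 in AgNO3 (median 0.12), where 48.2% of all features were, and 5 of 7 in AgNPs (median 0.065), against 51.8%. Of these markers 0 passed the adjusted threshold, and 1 of 7 had an unadjusted p under 0.05 in AgNO3, against 8.25% of all features. The dye orientation term was below 0 in 6 of 7 of them, with a median of -0.039 beside 0.0077 over all features. Osteoblast markers had 4 of 7 above 0 in AgNO3 and 3 of 7 in AgNPs. Fibroblast and tendon markers had 3 of 5 above 0 in each group. Notochord markers, a list that overlaps the chondrocyte list, had 3 of 4 above 0 in AgNO3 and 0 of 4 in AgNPs. The part of cartilage cell number in the collagen values was not tested.

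**Figure D2:**
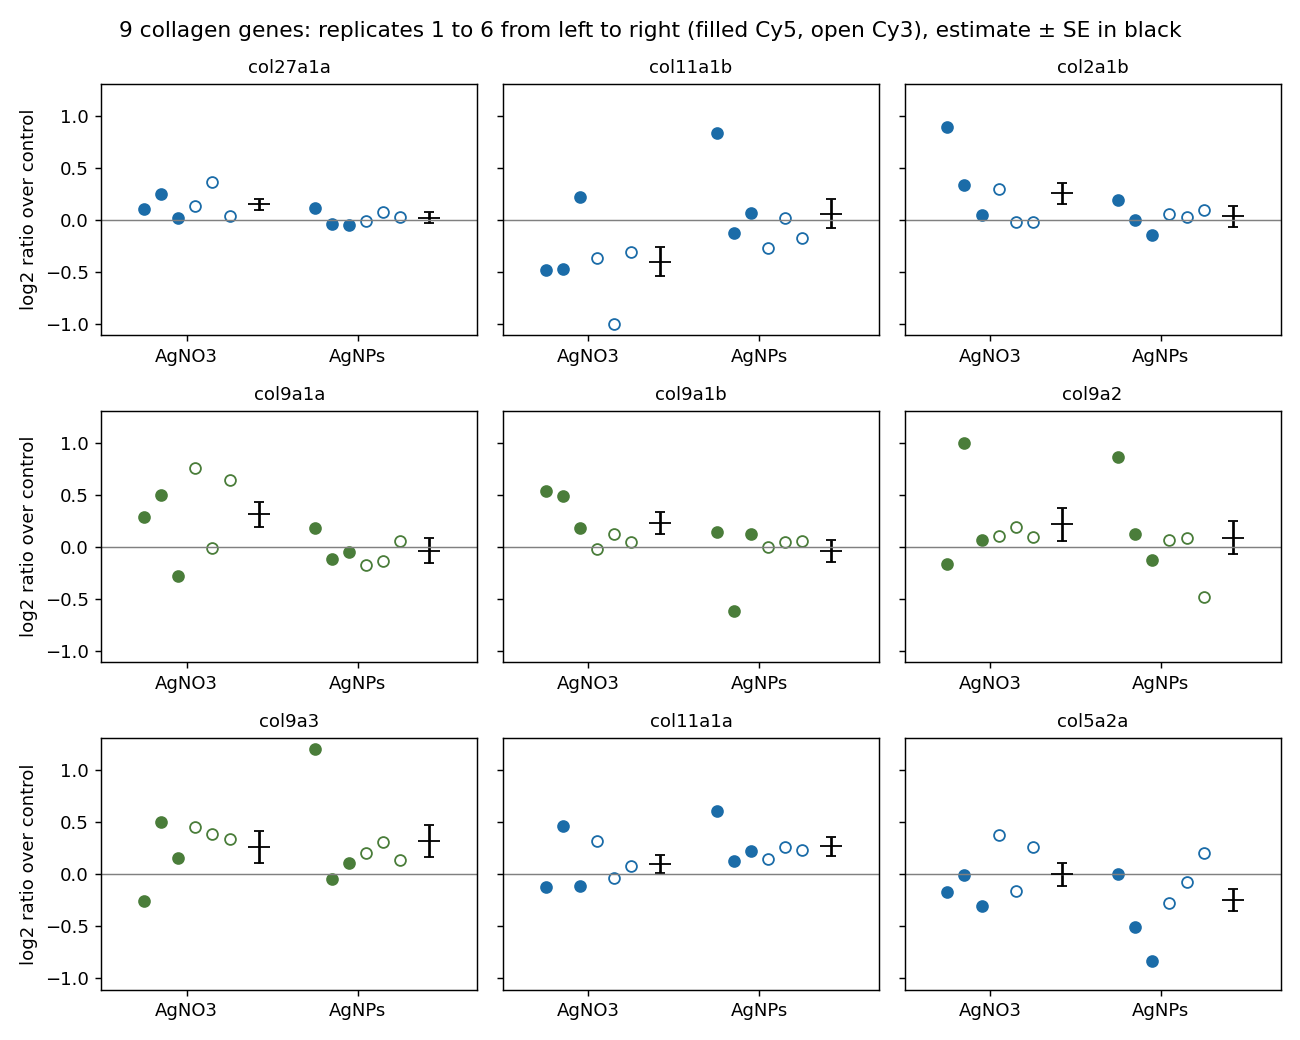
Log2 ratio of exposed over control (y axis) of 9 collagen genes on the AgNO3 and AgNPs arrays (x axis), with points for single arrays, filled for exposed RNA in Cy5 and open for Cy3, and the fitted ratio ± SE in black. For col27a1a all 6 AgNO3 points lie above 0, for col11a1b 5 of 6 lie below, and the high points of col9a3 (1.20) and col11a1b (0.84) in AgNPs are both replicate 1.

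Type XVII collagen is a membrane protein that fastens the basal cells of the epidermis to the basement membrane. On the AgNO3 arrays col17a1b ran from -0.95 through -0.26 to 0.11, with 2 of 6 above 0. Its ratio was -0.38 (SE 0.16, adjusted p = 0.583), -0.25 without AgNO3 replicate 3 and 0.022 with the dye-swapped arrays turned. On the 5 AgNPs arrays that had a value it ran from -0.32 through 0.0078 to 0.40, with a ratio of 0.058. Epidermal markers lay above 0 in AgNO3 in 5 of 7 genes. At an unadjusted p under 0.05, 3 of 7 were higher there, against 3.54% of all features, and 1 lower, against 4.71%. The higher ones were krt91 at 0.39, krt5 at 0.32 and krt4 at 0.27, keratins of the skin. Their unadjusted p-values in limma were 0.00167, 0.00264 and 0.00503. On the lower side agr2 was at -0.27 (unadjusted p = 0.0327) and epcam at -0.16. The dye orientation term was below 0 in 7 of 7 epidermal markers, with a median of -0.077 beside 0.0077 over all features. None of the epidermal markers passed after adjustment, and their part in the value of col17a1b was not tested. The paralog col17a1a had ratios of 0.047 in AgNO3 and 0.10 in AgNPs, the latter with a value of 1.03 on replicate 1.

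Types VIII and X build short-chain networks, type X in cartilage that is about to mineralise. On the AgNPs arrays col10a1a ran from -1.09 through -0.15 to 0.44, with 1 of 6 above 0. Its ratio of -0.22 there (SE 0.16) was -0.055 without replicate 3, and its ratio in AgNO3 was 0.051, with arrays from -0.48 to 0.50. The gene col8a2 had values on 4 AgNO3 and 6 AgNPs arrays. On the AgNPs arrays it ran from -0.15 through 0.0089 to 1.72, and its ratio of 0.26 (SE 0.21) was -0.024 without replicate 2. The remaining other types were col6a2 of the microfibrils around muscle and other cells, col8a1a, col8a1b, col19a1 and col28a1a. Their ratios lay between -0.15 and 0.039 in AgNO3 and between -0.072 and 0.10 in AgNPs. The highest of them in AgNO3, 0.039 for col8a1a, was -0.32 with the dye-swapped arrays turned. The untested col28a2a lay between -0.16 and 0.23 on 3 AgNO3 arrays and between -0.11 and 0.057 on 6 AgNPs arrays.

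Set against each other directly, the salt and the particles did not differ in any collagen past the adjusted threshold, which 0 of all 25266 features passed. Of the collagens 13 of 34 had a higher ratio in AgNO3 than in AgNPs, beside 48.2% of all features, and the median difference was -0.043 beside -0.0075. By class it was -0.031 over fibrillar genes (4 of 14 above 0), -0.059 over basement membrane genes (3 of 7) and -0.054 over other types (6 of 13). Each of these medians changed sign in some alternative: without AgNPs replicate 1 they were 0.0078 over collagens and over fibrillar genes and 0.11 over other types, and without AgNPs replicates 3 to 6 the basement membrane median was 0.035. The 1 gene with an unadjusted p under 0.05 was col11a1b, with a difference of -0.46 (95% interval -0.90 to -0.022, adjusted p = 0.858). Next in order of p were col9a1a at 0.35 (-0.022 to 0.73), col27a1b at -0.20 (-0.42 to 0.023), col17a1b at -0.43 (-0.97 to 0.096), col27a1a at 0.13 (-0.031 to 0.30) and col9a1b at 0.27 (-0.064 to 0.60). Turning the dye-swapped arrays gave differences of -0.043 for col11a1b, -0.19 for col9a1a, -0.090 for col27a1b, 0.087 for col17a1b, -0.018 for col27a1a and 0.25 for col9a1b. The gene col27a1b ran from -0.30 through -0.11 to 0.035 in AgNO3 and from -0.018 through 0.0056 to 0.48 in AgNPs. Without AgNPs replicate 2, the differences of col27a1b and col9a1b were -0.12 and 0.13.

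The intervals show what these arrays could exclude only under the readings taken here. Values are as deposited, the log base is assumed, and 1 spread per feature is shared by both groups. If dye-swapped arrays were not turned before deposit, the intervals do not concern salt against particles. A collagen's 95% interval for the difference reached 0.36 to either side of the estimate at the median, and from 0.17 to 0.75 across the 34 genes. For 19 genes the interval lay within 0.5 of 0 and for all 34 within 1, so under these readings a difference beyond 1 was outside every interval. Some intervals rest in part on values near 0 that probes of different genes shared on an array, as for col4a3 and col27a1a in AgNPs. If those values are not measured ratios, such intervals could not exclude a difference. For no collagen did all AgNO3 arrays lie above all AgNPs arrays, where 0.214% of all features did, or below them, where 0.297% did.

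**Figure D3:**
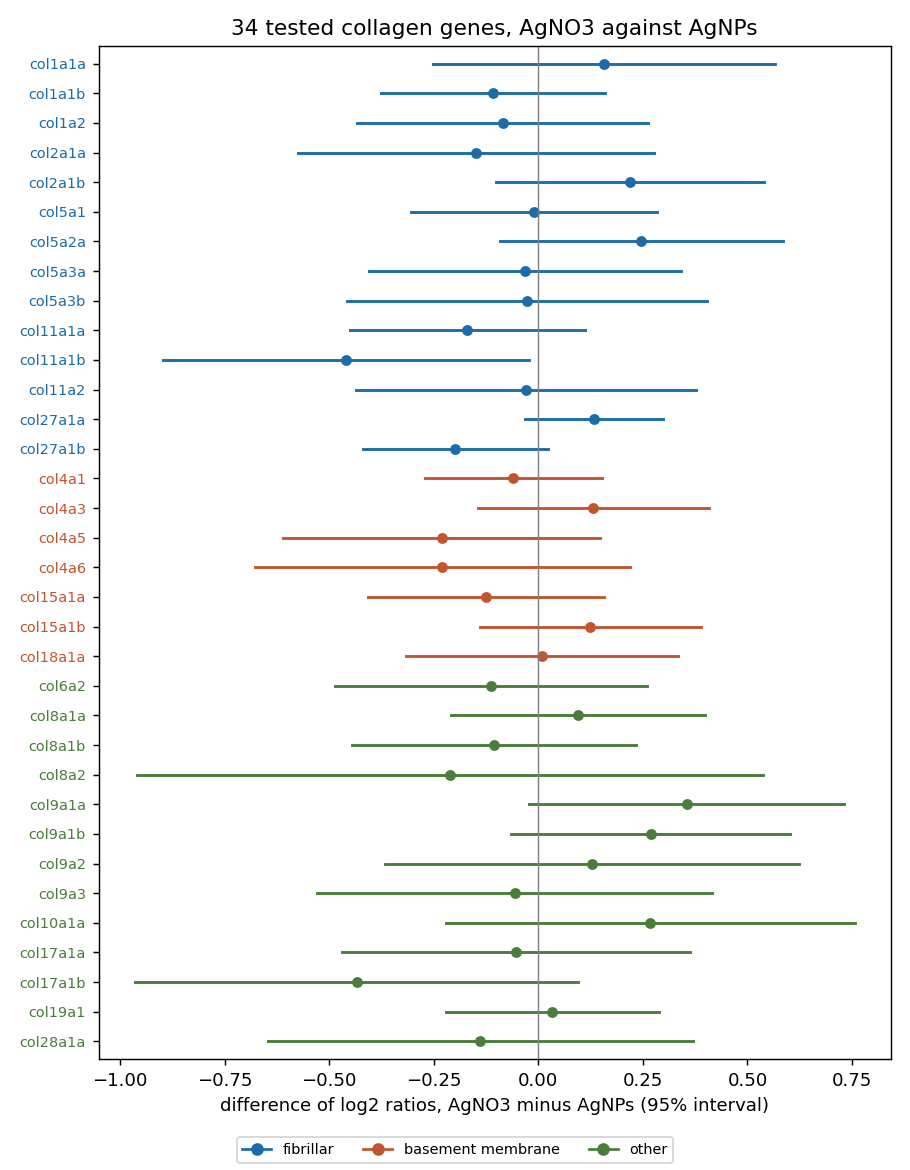
Difference of the log2 ratios, AgNO3 minus AgNPs (x axis), for the 34 tested collagen genes (y axis), coloured by class, with points for the fitted difference and lines for its 95% interval. The interval of col11a1b, from -0.90 to -0.022, is the only one that leaves out 0.

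Of the 9 a and b pairs with both genes tested, 6 had fitted ratios of opposite sign in AgNO3 and 3 in AgNPs. Over all features 48.2% lay above 0 in AgNO3 and 51.8% in AgNPs, so unrelated genes often differ in sign too. The share for unrelated pairs was not computed, and several of these ratios lay close to 0. The pair col27a1a and col27a1b was apart on every AgNO3 array, the a gene above the b gene on 6 of 6, with fitted ratios of 0.15 and -0.11. In AgNPs the a gene was above on 3 of 6. The probes of col27a1b differed in AgNO3, with means of -0.23 and 0.031. On AgNO3 replicate 1 only the lower probe had a value, and on AgNO3 replicate 6 only the other. For col11a1 the a gene was above the b gene on 5 of 6 arrays in each group. How much the probes of paralogs bind each other's RNA was not tested. Probes of 1 gene also differed: of 25 collagens with several probes, the probes had one sign in 9 genes in AgNO3 and in 12 in AgNPs.

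Single arrays stood apart for these genes. On AgNPs replicate 1 the fibrillar median was 0.37 and 13 of 14 fibrillar genes were above 0, whereas on the other AgNPs arrays the median lay between -0.045 and 0.055. That array held the AgNPs value farthest from 0 for 17 of 34 collagens, and for 33.9% of all features. On AgNO3 replicate 1 the fibrillar median was -0.29 with 3 of 14 genes above 0, against medians of -0.069 to 0.24 on the other AgNO3 arrays. Basement membrane medians stayed between -0.056 and 0.15 on all 12 arrays.

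**Figure D4:**
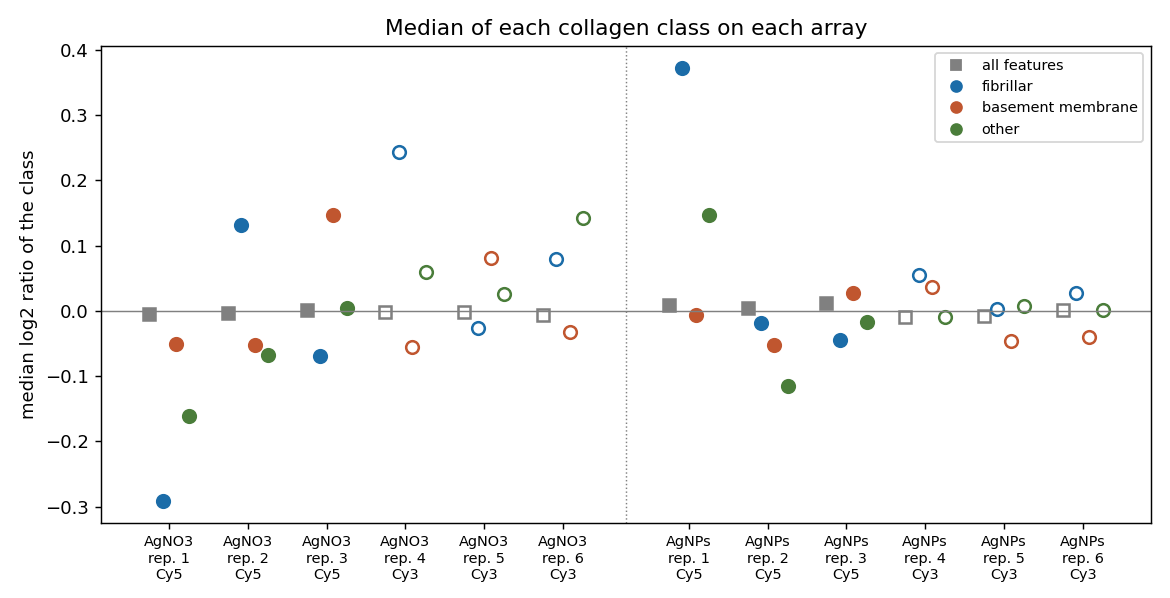
Median log2 ratio of each collagen class and of all features (y axis) on each of the 12 arrays (x axis), filled for exposed RNA in Cy5 and open for Cy3. All-feature medians stay within 0.0124 of 0, while fibrillar medians reach -0.29 on AgNO3 replicate 1 and 0.37 on AgNPs replicate 1.

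Dye orientation had as many collagens under the unadjusted threshold as AgNO3 had. At an unadjusted p under 0.05 the dye term held 5 of 34 collagens, or 14.7%, against 10.3% of all features, and 0 passed after adjustment, against 0.285%. The genes were col15a1a, col8a1a, col5a2a, col15a1b and col4a1, 3 of them of the basement membrane class. For col15a1a the term was 0.19 (SE 0.06), so that its ratio was higher with exposed RNA in Cy5, and for col15a1b it was -0.14. Had the authors left the swapped arrays as scanned, such a term would instead be a change in one direction on all arrays.

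The genes that process, crosslink, degrade or bind collagen were described from lists by role. None of their members passed the adjusted threshold in either group or in the difference. In the dye orientation term 1 of 19 crosslinking and fibril assembly genes passed, on the lower side, against 0.285% of all features. Without turning before deposit, that term would hold the exposure effect. Enzymes and chaperones that hydroxylate and fold the chains lay above 0 in 6 of 17 genes in AgNO3 (median -0.068) and in 8 of 17 in AgNPs (median -0.011). Genes of secretion and propeptide removal lay above 0 in 5 of 13 in AgNO3 (median -0.075) and in 10 of 13 in AgNPs (median 0.078). Their difference was below 0 in 11 of 13 genes, against 51.8% of all features, with a median of -0.11 beside -0.0075. Of these 13 genes 3 had an unadjusted p under 0.05, against 4.22% of all features. In AgNO3 1 of 13 was lower at that p, against 4.71% of all features. Folding genes under it numbered 3 of 17 in AgNO3, all lower, against 4.71%. They were 1 of 17 in AgNPs, which was higher, against 2.05%, and 2 of 17 in the difference, all lower, against 2.58%. The difference was below 0 in 10 of 17 folding genes.

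Genes of crosslinking and fibril assembly lay above 0 in 8 of 19 in AgNO3 (median -0.086) and in 7 of 19 in AgNPs (median -0.013). In this list loxl2a, a lysyl oxidase-like enzyme that crosslinks collagen, was at -0.42 in AgNO3 (SE 0.11, adjusted p = 0.409) and at -0.24 in AgNPs. The proteoglycan gene lum, whose product lumican binds type I fibrils, was at 0.23 in AgNO3 (SE 0.07, adjusted p = 0.475) and at 0.026 in AgNPs. Collagen-degrading enzymes and their inhibitors lay above 0 in 5 of 10 genes in AgNO3 (median 0.0014) and in 4 of 10 in AgNPs (median -0.034). Collagen receptors lay above 0 in 3 of 8 in AgNO3 (median -0.12) and in 4 of 8 in AgNPs (median 0.0043). Laminins and other partners of the basement membrane lay above 0 in 10 of 17 genes in AgNO3 (median 0.035) and in 11 of 17 in AgNPs (median 0.016). The difference was below 0 in 8 of 19 crosslinking, 5 of 10 breakdown, 6 of 8 receptor and 7 of 17 partner genes. At an unadjusted p under 0.05, 1 of 19 crosslinking genes was lower there, against 2.58% of all features. In AgNO3 2 of 19 crosslinking, 2 of 10 breakdown and 1 of 8 receptor genes were lower at that p, against 4.71%. In that group 2 of 19 crosslinking genes were higher, against 3.54%.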

How the data were processed

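The authors deposited 1 log ratio of both channels per probe and array, taken as log2 since no base is stated, per the labels' 2 dyes and the values themselves. How the arrays were scanned, background-corrected, normalized and filtered is not stated in the labels. Array medians near 0 were taken as centring by the authors, and no further normalization was applied. Between 6.97% and 10.9% of values per array were empty. Without intensities, how far a probe stood above background could not be judged. Probes of different collagens shared identical values on several arrays. On AgNPs replicate 3, a probe each of col11a1b, col11a2, col27a1a, col27a1b, col4a1 and col5a3b stood at 0.0191473. On AgNPs replicate 4, probes of col5a2a, col8a1b and col9a1b stood at -0.00930736, the median of that array. Such values near 0 may not be measured ratios, and their origin was not tested. Precision is also limited by the number of arrays.

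Of 43603 probes, 30186 had 1 gene symbol, updated through RefSeq gene tables, and 13417 had none and stayed features of their own, giving 28500 features. All 12 arrays entered 1 limma fit (limma 3.58.1, R 4.3.3) with a mean per group and a dye orientation term. Tests were 2-sided and moderated, with Benjamini-Hochberg adjustment over 25266 features. The fit estimates 1 spread per feature from all arrays, and AgNPs replicates 3 to 6 had the narrowest ranges. Where a gene spread more over the AgNO3 arrays, its SE and p-value in AgNO3 can be too small, and those in AgNPs too large. The SDs of col2a1b were 0.348 in AgNO3 and 0.111 in AgNPs, and those of col4a6 were 0.536 and 0.125. Over all features the median SDs were 0.288 and 0.203. The fit was also run on simulated data with independent arrays of equal spread in each feature and the dye orientation assumed here. That run cannot tell how the fit behaves with arrays of unequal spread or with unturned arrays. Genes given with array values were the 6 of lowest p in each comparison and all members of types I, II and IV, and other members given with array values were chosen after their values were seen. From the other lists, genes with an unadjusted p under 0.01 were named. In addition, agr2 and epcam were named after their values were seen. The members and lists were chosen with earlier results of these data known. Alternatives were another scaling, filter, probe summary, dye handling, blocks and leaving out each array.

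Whether replicate numbers pair the samples was not settled. Deviations of same-numbered arrays from their group means correlated between -0.049 and 0.095, and between -0.27 and -0.14 once the dye term was taken out. Arrays of the same control code correlated between -0.11 and -0.0047 by the first measure and between 0.086 and 0.20 by the second. Same-numbered arrays share a dye orientation, and arrays of the same control code have opposite ones. A dye effect moves the first measure by orientation. Taking out a fitted dye term moves the second measure the other way, even for unrelated arrays. Neither measure can therefore decide on pairing or on shared controls.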

Additional observations from a re-analysis of the deposited data

Results flagged for a closer look

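In 78 groups of array values (each collagen and each class median in each exposure group), 21 had an outlying array. Outlying means the highest or lowest, standing apart by Dixon's criterion at 95%. Chance flags about 1 group in 20 only if arrays share the same spread, which the AgNPs arrays did not. Interquartile ranges were 0.293 and 0.233 on AgNPs replicates 1 and 2, against 0.0946 to 0.116 on replicates 3 to 6. Replicates 1 and 2 held the largest absolute AgNPs value for 17 and 4 of 34 collagens, and for 33.9% and 23.6% of all features. The share of all features flagged was not computed, so the 21 are not shown to be particular to collagens. Of the 21, 11 were on AgNPs replicate 1, 4 on AgNPs replicate 2 and 3 on AgNO3 replicate 1.

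AgNPs replicate 1 was high for fibrillar genes: col11a1a stood at 0.61, col11a1b at 0.84, col1a1b at 0.56 and col1a2 at 0.46. It was also high for the cartilage gene col9a3 at 1.20 and for the epidermal gene col17a1a at 1.03. It was low for col19a1 at -0.53, col6a2 at -0.58 and col4a3 at -0.088. The median over all collagens was 0.15 on that array and the fibrillar median was 0.37.

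On AgNPs replicate 2, col8a2 stood at 1.72 and col27a1b at 0.48, while col9a1b stood at -0.62 and the untested col7a1 at -1.85. On AgNPs replicate 6, col8a1b stood at 0.73.

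On AgNO3 replicate 1, col4a6 stood at -1.29, col1a2 at -0.66 and the median over all collagens at -0.20. On AgNO3 replicate 2, col9a2 stood at 1.01, and on AgNO3 replicate 3, col4a3 stood at 0.72.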

How the results depend on the processing

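No collagen passed the adjusted threshold in limma under the 25 alternatives run for each comparison with control, the 24 run for the difference or the 23 run for the dye term. Among the named genes, the smallest adjusted p in any of these limma fits was 0.0856, for col11a1a in AgNPs. That of col9a3 in AgNPs was 0.203. Of 1038 alternative values of the 21 genes named, 54 had the other sign. With dyes balanced in a group, several settings return its ratio unchanged where all arrays have a value. Leaving out an array of the other group is such a setting. The share of 54 in 1038 is therefore no measure of stability. With the dye-swapped arrays turned, 20 of 44 values had the other sign. Turning gave col27a1a -0.028, col11a1b 0.16, col9a1a -0.15 and col17a1b 0.022 in AgNO3, opposite to the values above. It also gave a basement membrane median of 0.039 in AgNO3 and a difference of 0.10, a median of -0.044 over other types in AgNPs, 0 features past the adjusted threshold in AgNPs, 0 collagens there at an unadjusted p under 0.05, and 14 features for the dye term in place of 72. The cause of these shifts was not tested.

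Over all features, the 3 past the threshold in AgNO3 became 0 with arrays scaled to a common interquartile range, with AgNPs replicates 3 to 6 taken as log10, with array weights, on each group's own arrays, without AgNPs replicates 3 to 6 and with 1 value per orientation required. The 6 in AgNPs became 21 with scaling, 10 with the log10 reading, 19 with array weights, 0 on the AgNPs arrays alone and 10 without replicates 3 to 6. The 0 in the difference became 7 without those replicates. The 72 of the dye term became 31 with scaling, 4 with the log10 reading and 0 without those replicates.

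The 5 collagens with an unadjusted p under 0.05 in AgNO3 became 3 with scaling, 2 with the log10 reading, 3 with array weights, 3 on own arrays and 0 without AgNPs replicates 3 to 6. The 2 in AgNPs became 4 with array weights, 1 on own arrays, 1 with the median over probes and 0 without replicates 3 to 6. The 1 in the difference became 0 without the dye term, 2 with scaling and 2 with array weights.

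Without AgNPs replicates 3 to 6, which leaves 2 AgNPs arrays of 1 dye orientation, medians in AgNPs were 0.16 over collagens, 0.23 over fibrillar, -0.12 over basement membrane and 0.18 over other types, and median differences were -0.18 over collagens and 0.035 over basement membrane genes. With the median over probes, the basement membrane median was 0.0098 in AgNO3 and 0.040 in the difference. With values required on all 12 arrays, the median over other types in AgNPs was -0.036.

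With 1 array left out, features past the threshold ran from 0 to 2 in AgNO3, 1 to 7 in AgNPs, 0 to 1 in the difference and 32 to 83 for the dye term. Collagens at an unadjusted p under 0.05 ran from 2 to 7, 1 to 3 and 0 to 3. Medians in AgNO3 ran from -0.015 to 0.087 over collagens, -0.013 to 0.087 over fibrillar, -0.14 to -0.064 over basement membrane and -0.014 to 0.11 over other types. In AgNPs they ran from 0.013 to 0.049, 0.0068 to 0.10, -0.015 to 0.016 and -0.049 to 0.095 in the same order, and in the difference from -0.065 to 0.016, -0.11 to 0.036, -0.11 to -0.023 and -0.084 to 0.11. Of these 12 medians, the basement membrane medians in AgNO3 and in the difference and the collagen and fibrillar medians in AgNPs kept their sign in each of these fits, and the other 8 changed it in at least 1.

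With the replicate block (consensus correlation -0.058) 3, 6 and 0 features passed in AgNO3, AgNPs and the difference, 89 for the dye term, and 5, 2 and 1 collagens had an unadjusted p under 0.05, so the block changed no collagen count. The alternatives for counts at an unadjusted p, and medians over members chosen by the platform symbol alone, which kept the direction of the medians above, were added after seeing the data. The numbers share no label of litter, tank or day. With the control sample as block the consensus correlation was 0.037.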
